A study of Mus musculus with 12 samples.

Results

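The scavenger receptors described here are 10 genes, Msr1, Marco, Cd36, Scarb1, Cd163, Mrc1, Stab1, Stab2, Colec12 and Cd68, taken by symbol from a count table of 55401 genes. Each symbol matched 1 gene of the table, and all 10 passed the filter on low counts that left 12620 genes for testing. The cells were bone marrow derived macrophages of C57BL6 background mice, grown from marrow in 20 ng/mL M-CSF (macrophage colony-stimulating factor) and used on day 7. The young group held 6 libraries from mice aged 8 weeks and the old group 6 libraries from mice aged 12 months. No treatment or modified allele is labelled for these libraries, and age is the only labelled difference between the groups. They are called biological replicates without a statement that each is a separate animal, and p-values therefore measure the spread between these libraries. Cells cultured this way stand in for tissue macrophages and lack the signals of liver, spleen or lung. Library totals ran from 22150081 to 25169045 counts in the young group and from 19345587 to 22356812 counts in the old group.

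Scavenger receptors are surface and endosomal proteins that bind modified lipoproteins, microbial surfaces, dying cells, polyanions and many particles, and deliver them for uptake and breakdown. The class A receptors Msr1 (SR-A1), Marco and Colec12 carry a collagen-like stalk, and the class B receptors Cd36 and Scarb1 (SR-B1) are loop-shaped proteins anchored at both ends that handle fatty acids, oxidised lipoproteins and high-density lipoprotein. Stab1 and Stab2, the stabilins, are large receptors with fasciclin and EGF-like domains that clear hyaluronan and altered proteins. Cd163 takes up haptoglobin-haemoglobin complexes, Mrc1 (CD206) is the macrophage mannose receptor, and Cd68 (macrosialin) is a mucin-like glycoprotein found mostly in endosomes and lysosomes. Marco, Msr1 and the stabilins are well known for particle uptake by the macrophages and sinusoidal cells of liver and spleen.

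In GRCm38, Msr1 (ENSMUSG00000025044) lay on chromosome 8 at 39581685 to 39642673 and Marco (ENSMUSG00000026390) on chromosome 1 at 120474538 to 120505024. Cd36 (ENSMUSG00000002944) and Scarb1 (ENSMUSG00000037936) lay on chromosome 5, at 17781690 to 17888801 and 125277087 to 125341094. Stab1 (ENSMUSG00000042286) lay on chromosome 14 at 31139013 to 31168641, and Stab2 (ENSMUSG00000035459) on chromosome 10 at 86841198 to 87008025. Cd163 (ENSMUSG00000008845) lay on chromosome 6 at 124304656 to 124330527, Mrc1 (ENSMUSG00000026712) on chromosome 2 at 14229392 to 14332057 and Cd68 (ENSMUSG00000018774) on chromosome 11 at 69664213 to 69666153. Counts cover all exons of a gene, untranslated parts included, and resolve no transcript form. The exons of 8 of the 10 genes overlapped no other gene. Stab1 shared 112 exon bases, 1.09% of its exon length, with Nt5dc2 on the opposite strand, and Stab2 shared 141 bases, 1.61%, with Gm16268, and reads in such stretches are left out as ambiguous by default in this kind of counting.

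Promoter sequence from RefSeq (GRCm38.p6) was matched for 7 of the 10 genes. Shown are the 250 bases before the RefSeq start site of Cd68 and Stab1, the most abundant members, and of Marco, the member whose age groups did not overlap. For Stab1 and Marco that start is the end of the gene interval given above, and for Cd68 it lies 17 bases further out. Each is written 5′ to 3′ on the gene's own strand, with capitals marking matches on either strand to GAGGAA, the core bound by the myeloid factor PU.1, or to TGACTCA, the AP-1 site.
Cd68, chr11:69666171-69666420, minus strand: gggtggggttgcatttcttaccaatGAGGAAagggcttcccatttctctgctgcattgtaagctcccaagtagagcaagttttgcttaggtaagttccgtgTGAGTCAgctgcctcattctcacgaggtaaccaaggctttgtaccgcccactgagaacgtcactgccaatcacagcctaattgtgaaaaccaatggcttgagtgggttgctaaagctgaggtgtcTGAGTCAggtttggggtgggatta
Stab1, chr14:31168642-31168891, minus strand: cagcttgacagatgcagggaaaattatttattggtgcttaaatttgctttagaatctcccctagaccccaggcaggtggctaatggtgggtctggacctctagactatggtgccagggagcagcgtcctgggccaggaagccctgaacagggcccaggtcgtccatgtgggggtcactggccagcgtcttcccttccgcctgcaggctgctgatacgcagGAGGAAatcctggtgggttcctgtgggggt
Marco, chr1:120505025-120505274, minus strand: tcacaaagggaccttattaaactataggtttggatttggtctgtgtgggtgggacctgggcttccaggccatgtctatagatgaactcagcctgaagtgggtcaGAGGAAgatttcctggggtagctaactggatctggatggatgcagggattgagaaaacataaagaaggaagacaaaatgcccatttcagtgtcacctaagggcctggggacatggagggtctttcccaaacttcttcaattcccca
GAGGAA was matched in Cd68, Stab1, Mrc1 and Marco, that is in 4 of 7, and in 23.3% of the 32851 promoter windows of the same length. TGACTCA was matched on the minus strand at 2 places in Cd68 and in no other member, against 4.46% of all windows. CACGTG (an E-box), TGCTGAC (the core of a MAF site) and the LXR element DR4 were matched in none of the 7, against 6.02%, 3.81% and 0.0152% of all windows. All 250 bases of the Cd36 window lay inside the gene interval given above, so it does not lie before the outer end of that gene. These are matches of letters only, and no binding was measured.

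Per length, the 10 genes covered more than 3 orders of magnitude, and Cd68 alone made up most of their summed level. Levels between genes are given as TPM (counts per exon length, scaled to the same total in every library), computed here from counts and exon lengths. Cd68 stood at 6300 ± 432 TPM (SD, n = 12 libraries), the 15th highest of the 12620 tested genes, and held 82.9% to 88.6% of the summed TPM of the 10 genes. Stab1 followed at 517 ± 128 TPM (n = 12), a level above 98.0% of tested genes. Cd36 at 212 ± 56.6 TPM and Mrc1 at 189 ± 37.8 TPM came next, then Scarb1 at 61.4 ± 5.01 TPM and Msr1 at 56.0 ± 20.7 TPM (SD, n = 12 each). The low end was formed by Cd163 at 10.3 ± 2.45 TPM, Colec12 at 5.98 ± 1.10 TPM, Stab2 at 3.39 ± 1.27 TPM and Marco at 1.98 ± 1.40 TPM (SD, n = 12 each). Marco and Stab2, the least abundant transcripts of the set, still lay above 15.7% and 22.7% of tested genes.

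Neighbours in this order were taken to differ where 1 lay above the other in all 12 libraries. Cd68 lay above Stab1, Mrc1 above Scarb1, and Msr1 above Cd163 in every library, and the other 6 steps did not meet that rule. Stab1 lay above Cd36, Cd163 above Colec12, and Colec12 above Stab2 in 11 of 12, and Scarb1 above Msr1 in 10 of 12. Cd36 and Mrc1 were not separated, with Cd36 higher in 7 of 12 libraries, and Stab2 lay above Marco in 9 of 12. The order of the means was the same with any 1 library left out. The distances depended on the length used, because the table joins all exons of a gene. Its length for Scarb1 is 8500 bases where the median coding transcript has 2444, and its length for Msr1 is 6344 bases against 2530. Per coding transcript length the order of the means held, but Mrc1 lay above Scarb1 in 7 of 12 libraries with a ratio of means of 1.05, and those genes with Cd36 were then not separated by the rule. In old replicate 6 Cd36 stood above Stab1 and Msr1 above Scarb1, and in young replicate 6 Msr1 stood above Scarb1 and Colec12 above Cd163. Stab2 stood above Colec12 in young replicate 5. Marco ranked above Stab2 in young replicates 1, 2 and 6 and in no old library.

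**Figure D1:**
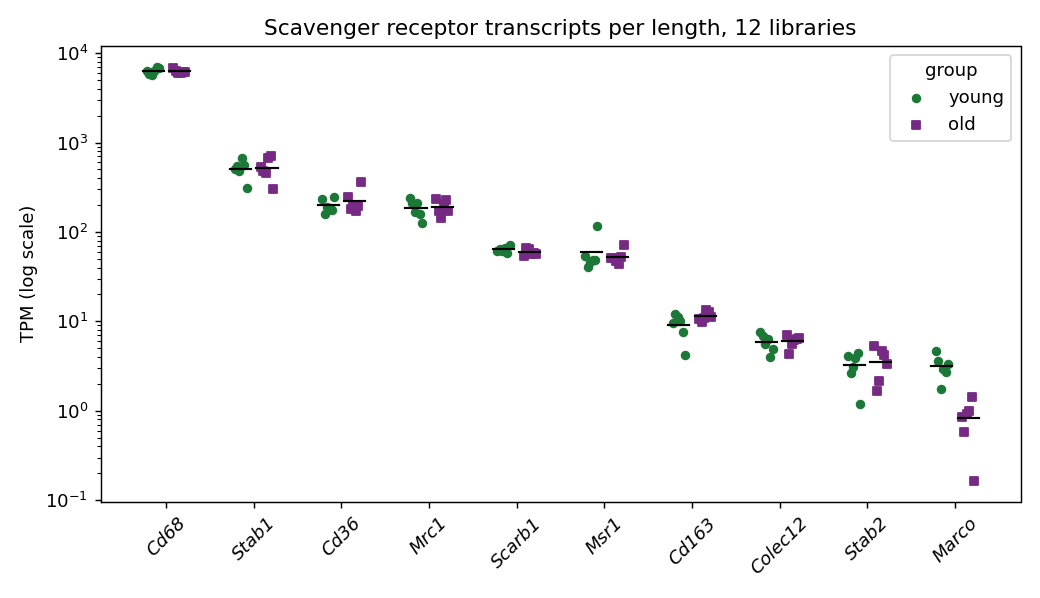
TPM on a log axis for the 10 receptor genes in order of mean TPM, with 1 point per library (circles young, squares old, n = 6 each) and a line at each group mean. Cd68 lies between 5667 and 7068 TPM in all 12 libraries, and Marco is the gene whose young and old points do not overlap.

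Relatives within a class differed widely in level. The ratio of Stab1 to Stab2 in TPM ran from 91.0 to 288 over the 12 libraries, with a median of 160.3. Msr1 exceeded Colec12 by 5.90 to 23.8 times, with a median of 8.15. Cd36 exceeded Scarb1 by 2.48 to 6.44 times, with a median of 3.07 and the highest value in old replicate 6. Per coding transcript length the median ratio was 18.8 for Msr1 to Colec12 and 1.17 for Cd36 to Scarb1, the latter above 1 in 11 of 12 libraries. Mrc1, often paired with Cd163 as a marker of alternatively activated macrophages, exceeded it by 13.2 to 29.8 times. The ratio of Msr1 to Marco ran from 11.3 to 35.2 in young libraries and from 36.1 to 438 in old ones, the last in old replicate 6, where Marco held 2 counts. Per coding transcript length these ratios would be higher, as Msr1 has 2530 in place of 6344 bases and Marco 1925 by either length.

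The next question was whether receptor levels differ between young and old macrophages. Marco lay lower in every old library than in any young library, and the other 9 genes overlapped between the ages. With edgeR's quasi-likelihood test 0 of the 10 members passed an adjusted p of 0.05 over all genes, where 0.0158% of tested genes did. DESeq2 called 1 of the 10, Marco, where it called 15 of 16216 genes. With limma voom 0 of the 10 passed, where 3 of 12620 genes did. At an unadjusted edgeR p below 0.05 there were 2 members, Marco and Scarb1, where 5.47% of tested genes had such a p. Both were lower in old libraries, where 2.24% of tested genes had such a p in that direction. The median log2 fold change of the 10 was -0.01, beside a median of -0.01 over all tested genes, and 4 of the 10 were positive against 47.5% of all. In bulk libraries, fewer cells that carry a transcript and less transcript per cell cannot be told apart.

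**Figure D2:**
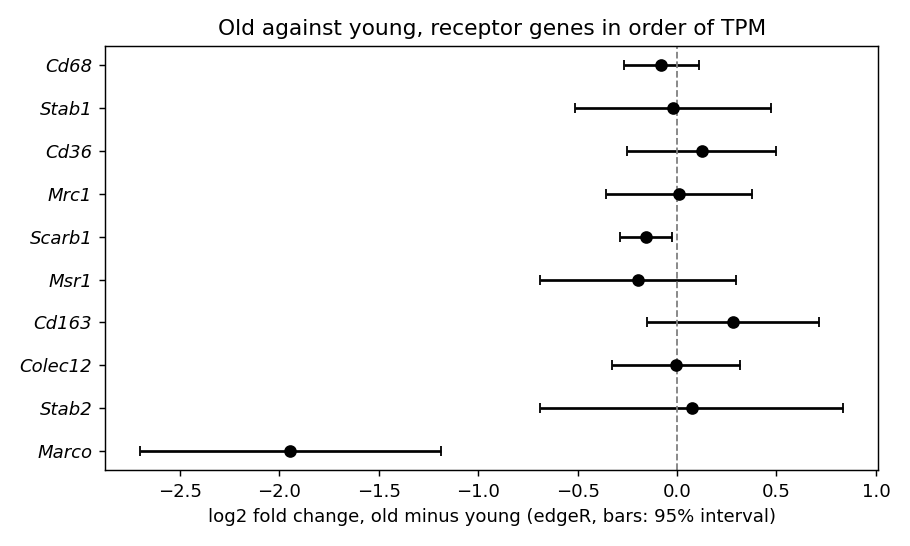
Log2 fold change of old over young libraries (points) with 95% intervals (bars) from edgeR's quasi-likelihood fit for each receptor gene, in order of TPM. The interval of Marco runs from -2.70 to -1.19 and that of Scarb1 from -0.28 to -0.03, and the other 8 intervals include 0.

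Among the class A receptors, Marco was low in young cultures and lower in old ones. CPM (counts scaled by library total) below carry TMM scaling (edgeR's factors for library composition), used to compare 1 gene between libraries. Young replicates 1 to 6 held 3.06, 2.30, 1.14, 1.98, 1.99 and 2.10 CPM of Marco, from 74, 52, 26, 44, 46 and 52 counts. Old replicates 1 to 6 held 0.561, 0.372, 0.578, 0.655, 0.948 and 0.104 CPM, from 12, 8, 13, 14, 21 and 2 counts. The lowest young library, replicate 3, was 1.2 times the highest old one, replicate 5, a narrow margin. Of the 10 members, 1 had groups that did not overlap, where 0.206% of tested genes did, 0.0872% with the old group lower. The group means were 2.09 ± 0.618 and 0.536 ± 0.283 CPM (SD, n = 6 each). The fitted log2 fold change was -1.94 with a standard error of 0.35, a fitted level 3.85 times higher in young libraries with a 95% interval from 2.28 to 6.50. The edgeR p was 8e-05 unadjusted and 0.23 adjusted over all genes.

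The counts behind Marco are few. The exact Poisson 95% interval of the 2 counts in old replicate 6 ran from 0.242 to 7.22 counts, or 0.0125 to 0.374 CPM. That of the 26 counts in young replicate 3, the lowest young library, ran from 0.744 to 1.67 CPM. It overlapped the interval of the 21 counts in old replicate 5, the highest old library, which ran from 0.587 to 1.45 CPM. Such intervals cover counting error only. Marco counts were even numbers in 10 of 12 libraries, where the other members ranged from 4 (Cd36) to 11 (Colec12). The counting command names no option for pairs, so that each mate of a read pair would count by itself. Whether reads were paired is not stated, and if they were, the intervals are too narrow. The call depended on the tool and filter. DESeq2 gave Marco an adjusted p of 9.91e-05 and edgeR without a low-count filter 0.0457, and over all 22 alternatives the adjusted p ran from 9.91e-05 to 0.785 with log2 fold changes from -2.18 to -1.74. For each of 10 cell type marker lists the summed levels of the age groups overlapped. Marco marks the marginal zone macrophages of the spleen, and 6 other markers of those cells and of alveolar macrophages, 4 of them tested, summed to 140.1 to 439 CPM in young and 155.9 to 394 CPM in old libraries, with Cd209b and Car4 at 0 in all. Their part in the Marco difference was not tested.

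**Figure D3:**
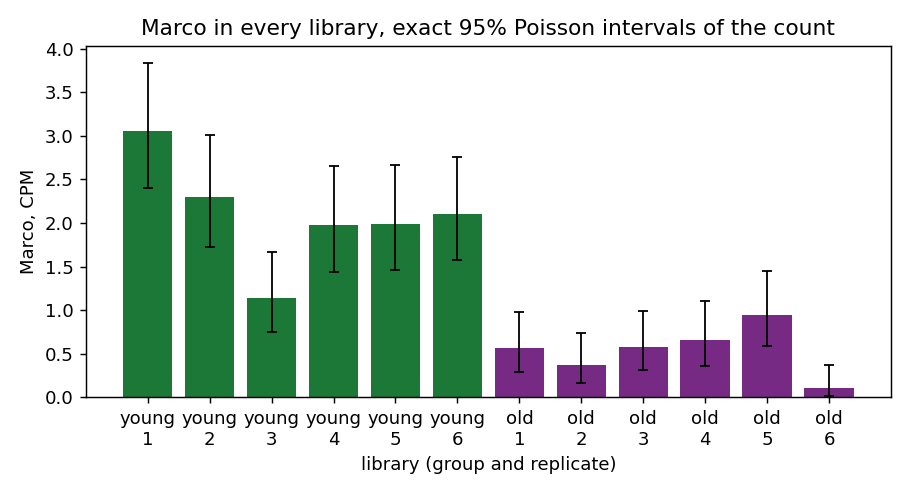
CPM of Marco in each library (bars, green young and purple old) with exact 95% Poisson intervals of the count (error bars), which cover counting error only. The 6 young bars sit between 1.14 and 3.06 CPM and the 6 old bars between 0.104 and 0.948 CPM.

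Msr1, the prototype receptor for acetylated lipoprotein, lay between 85.6 and 244 CPM in young libraries (median 114) and between 97.1 and 149.5 CPM in old ones (median 109). The groups overlapped in full apart from young replicate 6 at the top and young replicate 2 at the bottom. Its log2 fold change was -0.20 with a standard error of 0.23 (edgeR adjusted p = 0.84), and without young replicate 6 it was 0.09 (edgeR adjusted p = 0.86). Colec12 (ENSMUSG00000036103, chromosome 18 at 9707595 to 9882644), a collectin-type receptor with a C-type lectin domain, lay between 13.6 and 22.8 CPM in young (median 18.1) and between 12.5 and 21.2 CPM in old libraries (median 18.8). The log2 fold change of Colec12 was -0.0039 with a 95% interval from -0.33 to 0.32, the smallest in size of the 10.

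Of the class B receptors, Scarb1 had the lowest coefficient of variation of the 10 genes in young libraries and the lowest after Cd68 in old ones. It lay between 173 and 201 CPM in young (median 187) and between 158 and 184 CPM in old libraries (median 167). In the old group 4 libraries lay under the lowest young one, and old replicates 2 and 3 reached into the young range. The log2 fold change was -0.16 with a standard error of 0.06, and the p was 0.022 unadjusted and 0.77 adjusted over all genes in edgeR. The 3 libraries of highest cell cycle level are young replicate 6 and old replicates 2 and 3. With these left out together the Scarb1 groups did not overlap, which was certain because no other old library reached into the young range. The log2 fold change was then -0.19 (edgeR adjusted p = 0.17), and 7.20% of tested genes did not overlap in that setting. Cd36 lay between 191 and 293 CPM in young (median 241) and between 212 and 429 CPM in old libraries (median 233). Old replicate 6 held the 429 CPM and the other 5 old libraries stayed at or under 299 CPM. The log2 fold change of Cd36 was 0.12 with a standard error of 0.17 (edgeR adjusted p = 0.87), and it was -0.06 without old replicate 6 (edgeR adjusted p = 0.999).

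For the stabilins no age difference beyond the spread was detected. Stab1 lay between 1037 and 2419 CPM in young (median 1827) and between 1020 and 2463 CPM in old libraries (median 1736), so the ranges nearly coincided. Its log2 fold change was -0.02 with a 95% interval from -0.51 to 0.47. Stab2 lay between 3.44 and 14.98 CPM in young (median 10.6) and between 4.79 and 15.7 CPM in old libraries (median 11.1), again with nearly the same range. That of Stab2 was 0.07 with a 95% interval from -0.69 to 0.84. Stab2 is best known from sinusoidal endothelium. The 8 markers listed for those cells, 3 of them tested, summed to 28.3 to 55.4 CPM in young and 27.1 to 55.6 CPM in old libraries. Of these Emcn and Clec4g were at 0, and Lyve1, Cdh5 and Tek were under 1 CPM in all 12 libraries.

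Cd163 lay between 7.60 and 22.1 CPM in young (median 18.8) and between 17.8 and 25.3 CPM in old libraries (median 19.8). The young range was widened by replicate 6, and the other 5 young libraries lay between 15.8 and 22.1 CPM. The log2 fold change was 0.28 with a standard error of 0.20 (edgeR adjusted p = 0.77), and 0.13 without young replicate 6 (edgeR adjusted p = 0.81). Mrc1 lay between 264 and 530 CPM in young (median 421) and between 299 and 515 CPM in old libraries (median 408). For Mrc1 the log2 fold change was 0.0095 with a 95% interval from -0.36 to 0.38. Cd68 lay between 2389 and 3426 CPM in young (median 2790) and between 2490 and 2912 CPM in old libraries (median 2594). Its log2 fold change was -0.08 with a 95% interval from -0.27 to 0.11, and the old libraries lay inside the young range.

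The receptors ranged widely in their spread within the groups. The coefficient of variation was 5.59% in young and 6.19% in old libraries for Scarb1, and 13.3% and 5.63% for Cd68. At the other end it was 41.0% and 42.0% for Stab2, and 29.5% and 52.8% for Marco. These coefficients include counting error, and Marco held only 2 to 74 counts per library. Stab1 had 26.5% and 30.3%, Mrc1 23.0% and 21.1%, and Colec12 20.7% and 17.2%. In 10 of the 20 combinations of gene and age, leaving out 1 library lowered the coefficient by over 1.5 times. Without young replicate 6 it went in young libraries from 44.8% to 13.2% for Msr1, from 30.1% to 12.4% for Cd163, from 41.0% to 25.2% for Stab2 and from 26.5% to 16.1% for Stab1. Without old replicate 6 it went in old libraries from 17.2% to 6.95% for Msr1, from 31.4% to 15.1% for Cd36 and from 52.8% to 33.7% for Marco. For Cd68 it went to 8.09% without young replicate 5 and to 2.34% without old replicate 1, and for Colec12 in old libraries to 9.67% without replicate 2. Scarb1 and Mrc1 had no such library in either group.

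edgeR's biological coefficient of variation, which takes out counting error, lay above the trend for genes of like abundance in 7 of the 10 members, where 23.9% of all tested genes lay above it. It was 27.6% for Stab1 against a trend of 16.3%, 27.5% for Msr1 against 15.8%, and 42.1% for Stab2 against 25%. Marco, also counted among the 7, lay close to its trend at 34.1% against 33.5%. Scarb1 lay under the trend at 9.54% against 15.9%, Cd68 at 12.0% against 16.3% and Colec12 at 19.6% against 21.3%. A permutation test compared the mean absolute deviation of log2 CPM from the group median between ages for every tested gene. Deviations were taken once from each library's own group and then assigned in all ways to 2 groups of 6, so its p is approximate. Of the members, 0 of 10 passed an adjusted p of 0.05 and 0 had an unadjusted p below 0.05. Over all tested genes 0% passed and 2.88% had an unadjusted p below 0.05. The lowest permutation p among the members was 0.20, for Cd68, with a two-sided test. The smallest p the design allows is 0.0022, which cannot pass adjustment over 12620 genes unless many genes reach it.

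Some libraries were the highest or lowest of their group for several receptors, as they were for many other genes. In young replicate 6, Msr1 stood at 244 CPM against 105.8 ± 14 CPM in the other 5 young libraries (SD, n = 5), a ratio of 2.31. In the same library Stab2 was at 3.44 CPM against 11.3 ± 2.85 CPM, Cd163 at 7.60 against 19.2 ± 2.38 CPM, Stab1 at 1037 against 1997 ± 322 CPM, and Mrc1 at 264 against 439 ± 68.7 CPM (SD, n = 5 each). It was thus the highest young library for Msr1, Cd36 and Scarb1 and the lowest for Stab1, Stab2, Cd163 and Mrc1, while Marco, Cd68 and Colec12 lay within the range of the others. These 3 highest and 4 lowest of 10 members stand beside 34.4% and 31.5% of all tested genes for which this library was the highest and lowest of its group, so they are near its share over all genes. Its 6 cycling cell markers, all tested, summed to 1733 CPM, with 470.5 to 641 CPM in the remaining 5 of its group. The 7 macrophage markers, all tested, summed to 24350 CPM against 35840 to 42060 CPM. The 8 neutrophil markers, 6 of them tested, summed to 47.3 against 134 to 212 CPM, and the 7 monocyte and progenitor markers, 5 of them tested, to 81.5 against 45.2 to 68.5 CPM. Their part in the receptor profile was not tested.

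Old replicate 6 was the highest of its group for 2 of 10 members, Msr1 and Cd36, and the lowest for 2, Stab1 and Marco. Over all tested genes it was the highest for 26.6% and the lowest for 26.2%, which is no less. Stab1 was at 1020 CPM against 1969 ± 435 CPM in the other 5 old libraries (SD, n = 5), close to the level in young replicate 6. Msr1 was at 149.5 CPM against 105 ± 7.29 CPM, and Cd36 at 429 against 238 ± 35.9 CPM (SD, n = 5 each). Stab2, Cd163, Mrc1, Scarb1, Colec12 and Cd68 lay within the range of the other old libraries. Its cycling markers summed to 427 CPM, within the 364 to 1140 CPM of the other old libraries. Its 6 osteoclast markers, 4 of them tested, summed to 366 CPM against 74.8 to 159.6 CPM, and its monocyte and progenitor markers to 96.2 against 44.9 to 57.1 CPM. The 8 dendritic cell markers, 3 of them tested, summed to 10.1 against 3.46 to 4.35 CPM, and the 6 B and T cell markers, of which 0 passed the filter, to 12.6 against 0.0467 to 0.419 CPM. Their part in the receptor profile was not tested. Old replicate 2, with cycling markers at 1140 CPM, was the lowest old library for Stab2 (4.79 CPM), Cd163 (17.8 CPM) and Colec12 (12.5 CPM) and the highest for Scarb1 (184 CPM), where it was the lowest for 27.8% and the highest for 29.2% of all tested genes. Old replicate 1 was the highest old library for Cd68 (2912 CPM), Mrc1 (515 CPM), Colec12 (21.2 CPM) and Stab2 (15.7 CPM), 4 of 10 members, where it was the highest for 10.8% of all tested genes. That difference in share was not tested.

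**Figure D4:**
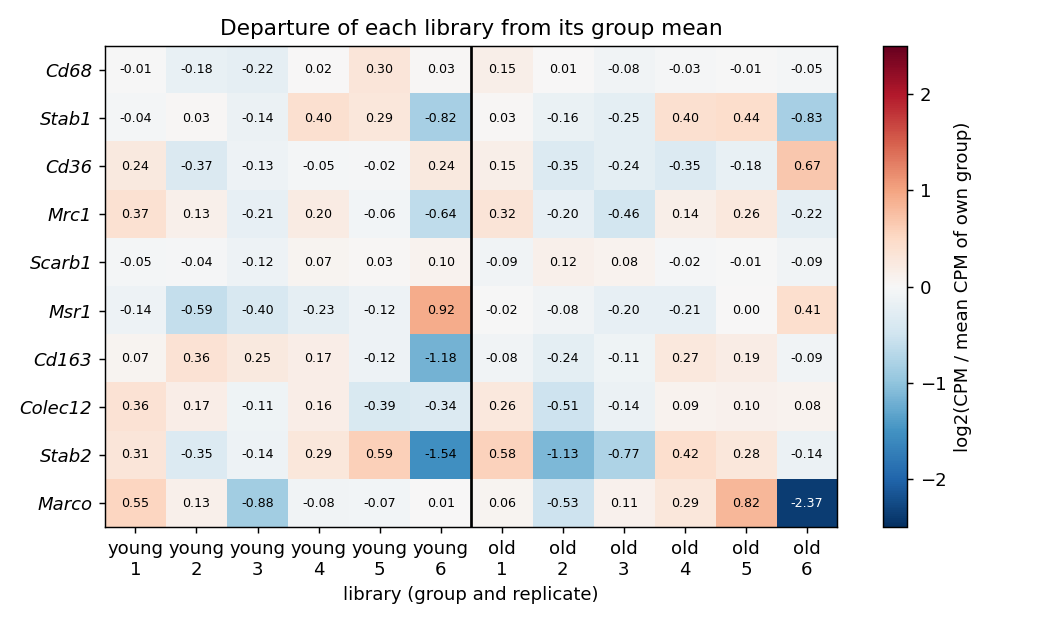
Log2 of each library's CPM over the mean CPM of its own group for the 10 receptor genes (rows, in order of TPM) in 12 libraries (columns, young left of the line), with the value in each cell. Young replicate 6 holds 0.92 for Msr1, -1.54 for Stab2 and -1.18 for Cd163, and old replicate 6 holds -0.83 for Stab1, 0.67 for Cd36 and -2.37 for Marco.

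For each receptor, the genes of at least 5 CPM most like it in log2 CPM over the 12 libraries were found, as a description of shared pattern in libraries that also share depth and culture. Each r below is among the highest of a search over all such genes in only 12 libraries, so high values come in part from the search. Stab2 was most like Gpr65, an acid-sensing receptor (Pearson r = 0.986, Spearman rho = 0.986), and Fam20c, a secretory pathway kinase (r = 0.978, rho = 0.965). Stab1 was most like Igfbp4 (r = 0.963, rho = 0.993) and Rogdi (r = 0.961, rho = 0.881). Msr1 was most like Idh3a, a mitochondrial isocitrate dehydrogenase subunit (r = 0.984, rho = 0.888), and this was r = 0.936 without young replicate 6. Cd163 was most like Gab1, a signalling adaptor (r = 0.980, rho = 0.860), and this was r = 0.884 without that library. Scarb1 was most like Nsdhl, an enzyme of cholesterol synthesis (r = 0.955, rho = 0.951), and Ndufs5, a respiratory chain subunit (r = 0.951, rho = 0.979). Chchd7 was among the genes most like Marco (r = 0.867, rho = 0.741). Cd36 was most like Slc41a2 (r = 0.956, rho = 0.909), Mrc1 like the kinase gene Fer (r = 0.941, rho = 0.951), Cd68 like BC031181 (r = 0.952, rho = 0.944) and Colec12 like Epc1 (r = 0.907, rho = 0.874).

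Genes around the receptors showed no called difference in edgeR, DESeq2 or limma voom. Of 20 other scavenger receptor genes, 12 were tested, and 0 passed in edgeR, 0 in DESeq2 and 0 in limma voom. Of the 12, 0 had an unadjusted edgeR p below 0.05, where 5.47% of all tested genes had such a p. Their median log2 fold change was -0.04 with 3 positive. Cd14, the lipopolysaccharide co-receptor, averaged 354 ± 68.7 CPM in the young and 332 ± 58.0 CPM in the old group. Cd5l, a secreted protein with scavenger receptor domains, was at 297 ± 118 and 269.5 ± 84.3 CPM, and Clec7a (dectin-1), with the lowest p of the list, was at 195 ± 43.0 and 244 ± 89.6 CPM (edgeR adjusted p = 0.77, SD, n = 6 each).

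Of 26 genes for ligand handling and binding partners, 25 were tested and 0 passed in edgeR, DESeq2 or limma voom. Of the 25, 2 had an unadjusted edgeR p below 0.05, Npc1 and Tlr6, where 5.47% of all tested genes had such a p. The median log2 fold change was 0.02, with 14 positive. Npc1, which exports cholesterol from late endosomes, lay between 183 and 255 CPM in young (median 215) and between 214 and 313 CPM in old libraries (median 249), with overlap and an edgeR adjusted p of 0.77. Apoe, the apolipoprotein that macrophages secrete, was at 7946 ± 3551 and 8070 ± 3087 CPM, and Fabp5, a fatty acid carrier, at 1428 ± 248 and 1369 ± 292 CPM (SD, n = 6 each, the young value first).

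All 19 genes for regulators of these receptors were tested, and 0 passed in edgeR, DESeq2 or limma voom. Of the 19, 1 had an unadjusted edgeR p below 0.05, where 5.47% of all tested genes had such a p. Their median log2 fold change was -0.0042, with 9 positive. Spi1, which encodes PU.1, was at 537 ± 67.1 and 484 ± 33.4 CPM, and Nfe2l2 (NRF2) at 405 ± 53.6 and 433 ± 41.5 CPM (SD, n = 6 each, the young value first).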

How the data were processed

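Bulk RNA-seq counts were analysed for 10 genes in 12 libraries. The deposited values are whole counts per gene, made with featureCounts 1.6.0 against Ensembl release 100 of GRCm38, per the file headers, with no option for strand, pairs or multiple alignments. The TruSeq v2 kit does not keep strand. FastQC, STAR and mm10 are named without versions in the submitters' processing notes. Each column name carries an age letter with a replicate number that matches 1 sample, and 0 columns stayed unused. A symbol was found for 55141 of the 55401 gene IDs.

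The test was edgeR's quasi-likelihood F test (version 4.0.16, R 4.3.3, robust, TMM, edgeR's low-count filter, group as the only term, 12 libraries, Benjamini-Hochberg over 12620 genes, threshold 0.05, two-sided), after a check on simulated counts. Genes of the text are the 10 members, and for each other list the 2 most abundant and the 1 of lowest p. Tlr6 was named after its values were seen, and 2 genes that the rules would name are not reported here. TPM were computed here from the exon lengths in the deposited table, per the file headers, and log2 CPM used a prior count of 2. DESeq2 1.42.0, limma 3.58.1, Python 3.11.15 and SciPy 1.17.1 were used. Alternatives were other scalings, filters, tools, a replicate block and each library left out. The joint omission of 3 libraries and the length from GENCODE transcripts were chosen after seeing the data. The members and lists were chosen with earlier results of these data known. The labels state no pairing of same-numbered libraries, so none was assumed, and the replicate block was run as an alternative.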

Additional observations from a re-analysis of the deposited data

Results flagged for a closer look

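In a check of 20 groups (10 genes in 2 ages) for 1 library far from the other 5 of its group, 3 stood apart, and chance alone flags about 1 in 20 groups. The 20 groups share the same 12 libraries, and the share of all tested genes that this check would flag was not computed. Young replicate 6 was the highest of its group for 34.4% of all tested genes, old replicate 6 for 26.6% and old replicate 1 for 10.8%. Msr1 was at 243.8 CPM in young replicate 6, the highest of its group, with a gap to the next library of 0.793 of the group's range. Msr1 was at 149.5 CPM in old replicate 6, the highest of its group, with a gap of 0.702 of the range. Cd68 was at 2912 CPM in old replicate 1, the highest of its group, with a gap of 0.632 of the range against a critical value of 0.625.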

How the results depend on the processing

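The number of all genes called old against young was 2, and it was 4 without a low-count filter, 4 with the replicate block and 15 with DESeq2, and from 1 to 5 with 1 library left out (1 without young replicate 4, 5 without young replicate 3). The number of receptor genes called was 0, and 1 (Marco) without a low-count filter and with DESeq2. Marco stood at -1.98 (log2) with the replicate block, edgeR adjusted p = 0.785. That block lowered the standard error from 0.227 to 0.064 for Stab1, from 0.227 to 0.116 for Msr1 and from 0.174 to 0.092 for Cd36. It raised that of Marco from 0.352 to 0.380 and that of Scarb1 from 0.060 to 0.066, and 0 of the 10 members were called. Same-numbered libraries correlated in their deviations at 0.307, 0.118, 0.0242, 0.382, 0.39 and -0.171 for numbers 1 to 6, and numbers 1 and 4 of young libraries correlated best with their own number. The order of abundance kept 8 of 10 ranks on CPM, where Mrc1 and Cd36 changed places, and 10 of 10 per coding transcript length, where the step from Mrc1 to Scarb1 shrank to 1.05. The groups of 1 gene did not overlap, and those of 2 (Marco and Scarb1) without the 3 libraries of highest cell cycle level. For Scarb1 this was certain, as the 3 include the old libraries that reached into its young range. No receptor passed the test of spread under any of its 14 alternatives, and neither did any other tested gene. With so few assignments its p cannot pass adjustment unless many genes reach the smallest value, so this does not show that the spread was alike. Without old replicate 2, 1 member had an unadjusted permutation p below 0.05. Marco, Scarb1, Cd68 and Cd163 kept their direction in all 22 alternatives. The others changed sign in some, without a call in any alternative, and the widest range was that of Msr1, from -0.29 to 0.15. With 1 library left out, Stab1 ran from -0.14 to 0.10 (above 0 without young replicates 4 or 5 or old replicates 2, 3 or 6), Cd36 from -0.056 to 0.19 (below 0 without old replicate 6) and Mrc1 from -0.089 to 0.10 (below 0 without young replicates 3, 5 or 6 or old replicates 1, 4 or 5). Likewise Msr1 ran from -0.29 to 0.089 (above 0 without young replicate 6), Colec12 from -0.070 to 0.080 (above 0 without young replicates 1, 2 or 4 or old replicates 2 or 3) and Stab2 from -0.10 to 0.23 (below 0 without young replicate 6 or old replicates 1 or 4). Library size only gave Stab1 0.0035 and Colec12 0.0076, and upper-quartile factors gave Mrc1 -0.0014. Colec12 was 0.0029 with the replicate block and 0.0023 with limma voom. Without the 3 libraries Msr1 was 0.15 and Colec12 0.071. The cause was not tested. Depth limits Marco most, at 2 to 74 counts per library.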
